A study of Danio rerio with 8 samples.

Results

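Genes for the protein components of the mitochondrial ribosome were followed through 8 RNA-seq libraries of cells sorted from adult zebrafish ventricles. The members were every row of the expression table whose symbol, read without regard to case, begins with mrpl or mrps followed by a digit. The rule found 73 of 31388 rows, of which 46 carry large-subunit (mrpl) and 27 small-subunit (mrps) symbols. The rule reads symbols only, and was set with earlier results of these data known. All fish carried the reporter Tg(-6.8wt1a:EGFP), which makes green fluorescent protein (GFP) under an upstream fragment of the epicardial gene wt1a, were 3 to 9 months old and received no treatment. Each of 4 pools of 3 to 5 hearts gave a GFP-positive library and a GFP-negative library, the latter holding the rest of the ventricular cells, so both libraries of a pool come from the same animals. The reporter marks cells by this fragment alone, pooled hearts cannot be told apart, and the protocol in the labels also speaks of mCherry-positive cells from the ventricular apex, which the labelled groups do not mention. It also names both an Ovation Single Cell and a TruSeq library kit without assigning either to a library, so a difference between pools cannot be told apart from a difference of kit, if there was one. Each library started from 0.2 to 0.6 ng of RNA and was amplified in 2 rounds.

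Mitochondrial ribosomes translate the few messenger RNAs encoded by the mitochondrial genome, all of them for core subunits of the respiratory chain and ATP synthase. Their RNAs are made inside the organelle, whereas all of their proteins are encoded in the nucleus, made in the cytosol and imported. Many members descend from bacterial ribosomal proteins, and others were added during the evolution of mitochondria and have no bacterial counterpart. Heart muscle, which depends on oxidative metabolism, is dense in mitochondria.

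The libraries separated by pool number and not by labelled sort. The wt1a transcript, the gene whose fragment drives the reporter, is listed under the symbol WT1 (ENSDARG00000031420). It stood at 2.42, 1.42, 106.82 and 44.28 transcripts per 1000000 (TPM) in the GFP-negative libraries of pools 1 to 4 and at 1.15, 2.59, 71.26 and 39.51 TPM in the libraries labelled GFP-positive, so its level did not follow the labels. In the marker counts here, called means an adjusted p under 0.05 in the limma F test among pools described below. That test called 12.9% of all genes tested, 7.85% with pools 1 and 2 highest and 4.55% with pools 3 and 4 highest. The summed TPM of 13 cardiomyocyte marker rows was 24727 to 34631 in pools 1 and 2 against 1900 to 4965 in pools 3 and 4. Of these rows 11 of 11 tested were called with pools 1 and 2 highest. Of the cardiomyocyte rows, copies listed as TNNT2 and TNNI1 were at 0 in 5 libraries each. The 6 endothelial rows summed to 164 to 299 TPM in pools 1 and 2 against 16.8 to 41.4 TPM in pools 3 and 4 (6 of 6 called), with TIE1 and pecam1a listed at 0 in 1 library each, both in pools 3 and 4. The 4 erythrocyte rows summed to 644 to 1503 TPM against 5.95 to 31.5 TPM (3 of 3 tested called), with SLC4A1 listed at 0 in 1 library. The 4 epicardial rows summed to 8.64 to 16.8 TPM in pools 1 and 2 against 218 to 452 TPM in pools 3 and 4 (4 of 4 called), and the 9 fibroblast rows to 148 to 279 TPM against 3122 to 6724 TPM (8 called, 7 of them highest in pools 3 and 4), with no row of either list at 0. The 12 macrophage rows summed to 20.8 to 27.5 TPM against 73.9 to 176 TPM, with 7 MPEG1 or MFAP4 copies listed at 0 in at least 1 library. Of the 6 tested macrophage rows 2 were called, 1 in each direction. On values scaled as described below, 5 of the 6 were lower in pools 3 and 4 and 1 was higher, unlike the sum. In these bulk libraries fewer cells of a type and less RNA per cell cannot be told apart, and the part of these markers in the member results was not tested.

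The members were of low to moderate abundance. TPM is scaled for transcript length, so levels can be set side by side between genes. Mean TPM over the 8 libraries ran from 0.119 for mrpl9 to 35.4 for MRPL32, with a median of 7.0 over the 73 members. Of the 73, 19 had a mean of at least 10 TPM, 50 lay between 1 and 10 TPM and 4 lay under 1 TPM. Together they took 0.0394% to 0.0770% of the TPM total of a library.

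The most abundant large-subunit member was MRPL32, whose product is cut by a protease of the inner mitochondrial membrane before it joins the ribosome. It stood at 22.4, 21.7, 60.2 and 55.0 TPM in the GFP-negative libraries of pools 1 to 4 and at 11.5, 45.9, 44.95 and 21.3 TPM in the GFP-positive ones, a mean of 35.4 ± 18.2 TPM (SD, n = 8). Next came MRPL51, a protein without a bacterial counterpart, with 23.7 ± 14.9 TPM, and MRPL11, which sits at the base of the stalk where translation factors bind, with 22.9 ± 7.02 TPM. These 3 levels do not differ beyond their spread over libraries. The 3 highest small-subunit means were lower. This did not hold for the subunit as a whole, whose median TPM in a library was 3.65 to 8.63, beside 3.5 to 8.28 over the large subunit. MRPS33 and MRPS7 both stood at 12.8 TPM (SD 5.77 and 9.27, n = 8), and MRPS35 at 11.8 ± 7.51 TPM, again within one another's spread. MRPS7 descends from the bacterial protein that starts the assembly of the small subunit head, and MRPS33 and MRPS35 are particular to mitochondria.

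Low and zero values were unevenly spread over the pools. Of the 73 members, 33 had at least 1 TPM in all 8 libraries, and 26 were listed at 0 in at least 1 library. Libraries of pools 1 and 2 held 6 such zero values, in 5 members, and libraries of pools 3 and 4 held 38, in 26 members. In the GFP-negative libraries of pools 1 to 4, 2, 0, 14 and 8 members were listed at 0, and in the GFP-positive libraries 0, 4, 7 and 9. Zero values were also more frequent in pools 3 and 4 over the 13877 genes tested below. There 604, 207, 916 and 621 genes were at 0 in the GFP-negative and 197, 580, 626 and 759 in the GFP-positive libraries. The files give no read numbers, so depth is unknown and a value of 0 cannot be separated from a transcript that was missed in a small, amplified sample.

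**Figure D1:**
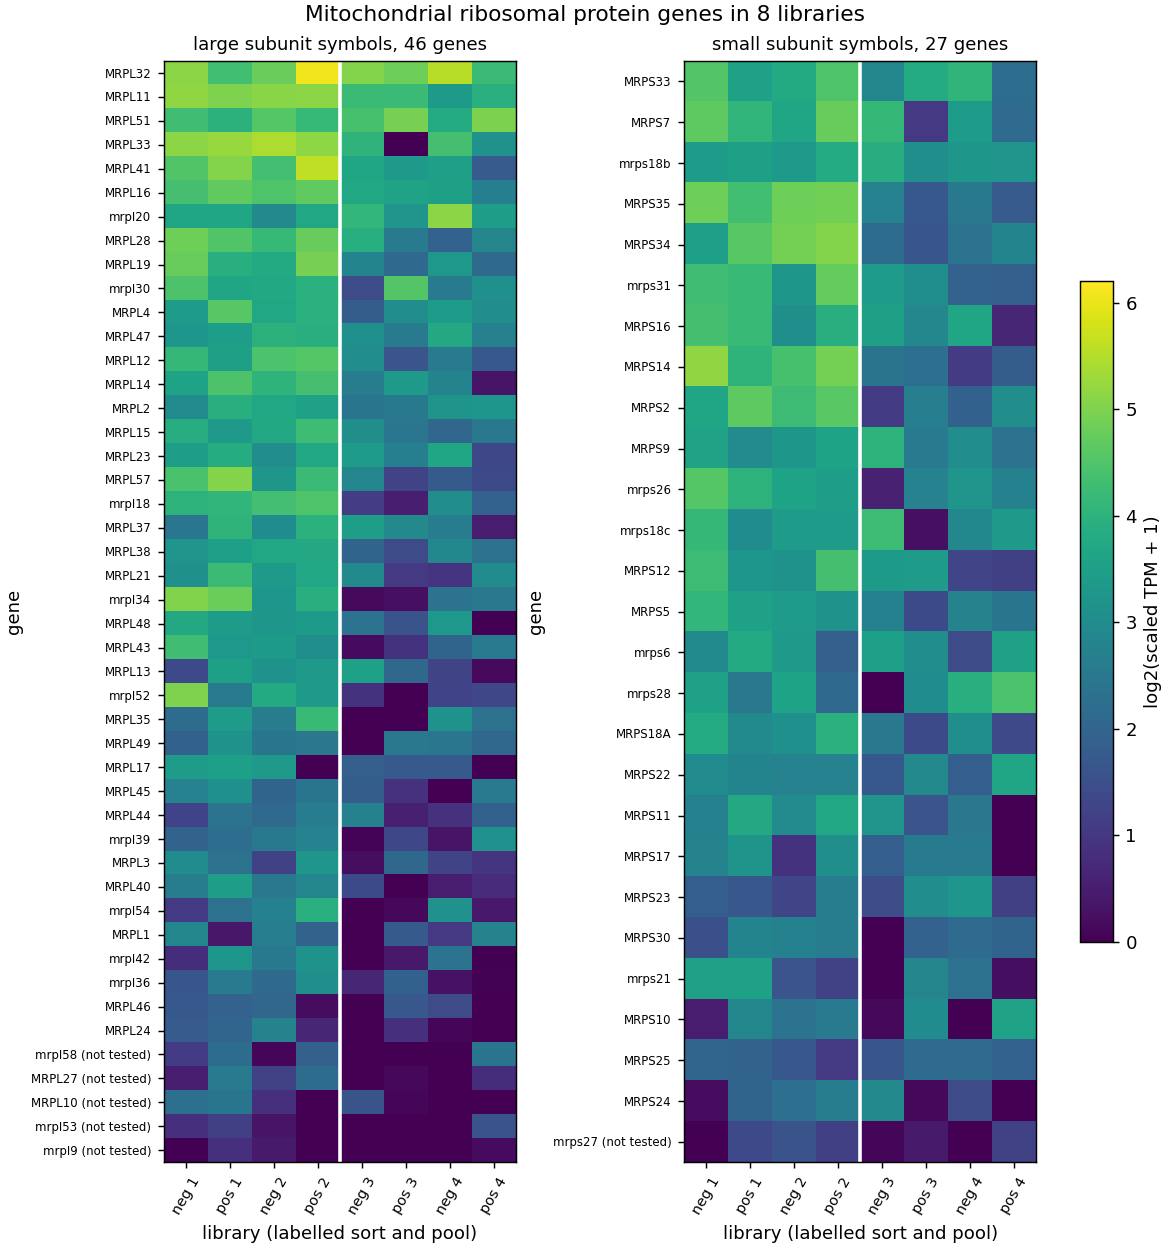
Level of all 73 members in the 8 libraries, as log2(scaled TPM + 1), with the 46 large-subunit genes on the left and the 27 small-subunit genes on the right, each sorted by mean level. Columns run from the GFP-negative and GFP-positive libraries of pool 1 to those of pool 4. A white line parts pools 1 and 2 from pools 3 and 4, where most rows are darker (lower) and 38 of the 44 zero values lie.

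Tests were run on 67 members, 41 large and 26 small, that reached 1 TPM in at least 4 libraries. The 6 others were the large-subunit genes mrpl9, mrpl53, MRPL27, MRPL10 and mrpl58 and the small-subunit gene mrps27. Their highest values were 0.49 TPM for mrpl9, 2.40 for mrpl53, 2.94 for MRPL27, 3.91 for MRPL10, 5.18 for mrpl58 and 1.62 for mrps27. The product of mrpl58 is a peptidyl-tRNA hydrolase that became a structural part of the mammalian large subunit. Just outside the limit, MRPL27, MRPL10 and mrpl58 reached 1 TPM in 3 libraries. Just inside it, MRPL24, mrpl54 and mrpl42 reached it in 4 libraries, 3 of pools 1 and 2 and 1 of pools 3 and 4 in each case.

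The first comparison was that of the series, between the libraries labelled GFP-positive and GFP-negative of the same pools. No member passed the test. Since the wt1a transcript did not follow these labels, this result cannot show that reporter cells and the other cells are alike. Labels that do not match the sorted cells cannot be told apart here from a difference between pools, and this was not tested. The limma fit, with pool as a block, called 0 of 67 members at a Benjamini-Hochberg adjusted p under 0.05, and 0 of 13877 genes in all (0%). At an unadjusted p under 0.05 it listed 2 of 67 members, MRPS10 and MRPS2, beside 770 of 13877 genes tested, a smaller share of the members than of all genes. The median log2 difference, GFP-positive minus GFP-negative, was -0.03 over the tested members (-0.05 for the large and 0.02 for the small subunit), beside 0.01 over all genes, and the GFP-positive libraries were higher for 31 members and lower for 36. Fold differences here and below are on the scale log2(scaled TPM + 1), which understates the change of genes near 0. Scaled TPM is the TPM of a library divided by a factor that brings the middle of all genes to the same level, 0.603 to 0.818 in pools 1 and 2 against 1.21 to 1.89 in pools 3 and 4.

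Within single pools the sorts pointed in different directions. The median member difference was 0.09 in pool 1, 0.32 in pool 2, -0.20 in pool 3 and -0.37 in pool 4, with 35, 49, 28 and 23 of the 67 members higher in the GFP-positive library. On scaled TPM 3 members, MRPS10, MRPS2 and mrpl39, were higher in all 4 pools, and 1, MRPS5, was lower in all 4. The corresponding shares of all genes tested were 7.15% and 6.51%. The GFP-positive and GFP-negative libraries did not overlap on scaled TPM in 1 member, MRPS10, beside 1.81% of all genes in either direction.

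The 3 small-subunit members with the smallest p for the sort all descend from bacterial proteins. MRPS10, a protein of the head of the small subunit, stood at 0.25, 3.41, 0.18 and 0 TPM in the GFP-negative libraries of pools 1 to 4 and at 3.72, 3.39, 11.5 and 13.2 TPM in the GFP-positive ones. All 4 GFP-positive libraries lay above 3 of the GFP-negative ones, and in pool 2 both sorts were at the same level. Its log2 difference was 2.26 (SE 0.57, 95% interval 0.93 to 3.59; unadjusted p = 0.00471, adjusted p = 0.853, limma). Its size depends on the pseudocount, since 3 of the 4 GFP-negative values are near 0. MRPS2 stood at 7.68, 14.9, 2.10 and 3.35 TPM in the GFP-negative and 14.6, 16.1, 8.61 and 8.94 TPM in the GFP-positive libraries, means of 7.0 ± 5.76 and 12.1 ± 3.85 TPM (SD, n = 4). The GFP-positive library was the higher in each pool but the groups overlap, and the log2 difference was 1.02 (SE 0.31, interval 0.31 to 1.73; adjusted p = 0.853, limma). MRPS5, whose bacterial counterpart helps to keep decoding accurate, stood at 10.6, 7.92, 10.7 and 7.07 TPM in the GFP-negative and 6.46, 5.46, 2.62 and 5.16 TPM in the GFP-positive libraries. It was lower in the GFP-positive library of each pool, by a log2 difference of -0.63 (SE 0.32, interval -1.38 to 0.11; adjusted p = 0.853, limma).

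Of the 3 large-subunit members with the smallest p, mrpl39, which has no bacterial ribosomal counterpart, stood at 1.94, 3.84, 0.07 and 0.32 TPM in the GFP-negative and 2.26, 3.91, 2.49 and 9.36 TPM in the GFP-positive libraries. The sorts were level in pools 1 and 2 and apart in pools 3 and 4, and the log2 difference was 1.14 (SE 0.51, interval -0.05 to 2.33). MRPL33, a small protein of bacterial descent, stood at 22.4, 34.4, 29.2 and 23.8 TPM in the GFP-negative and 22.1, 23.6, 0 and 9.38 TPM in the GFP-positive libraries. MRPL17, also of bacterial descent, stood at 6.37, 7.43, 5.06 and 2.90 TPM in the GFP-negative and 6.25, 0, 3.83 and 0 TPM in the GFP-positive libraries. Both turn on GFP-positive libraries listed at 0 (-1.37, SE 0.63, interval -2.82 to 0.09, and -1.29, SE 0.61, interval -2.70 to 0.12), and the adjusted p was 0.853 for all 3 genes (limma).

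**Figure D2:**
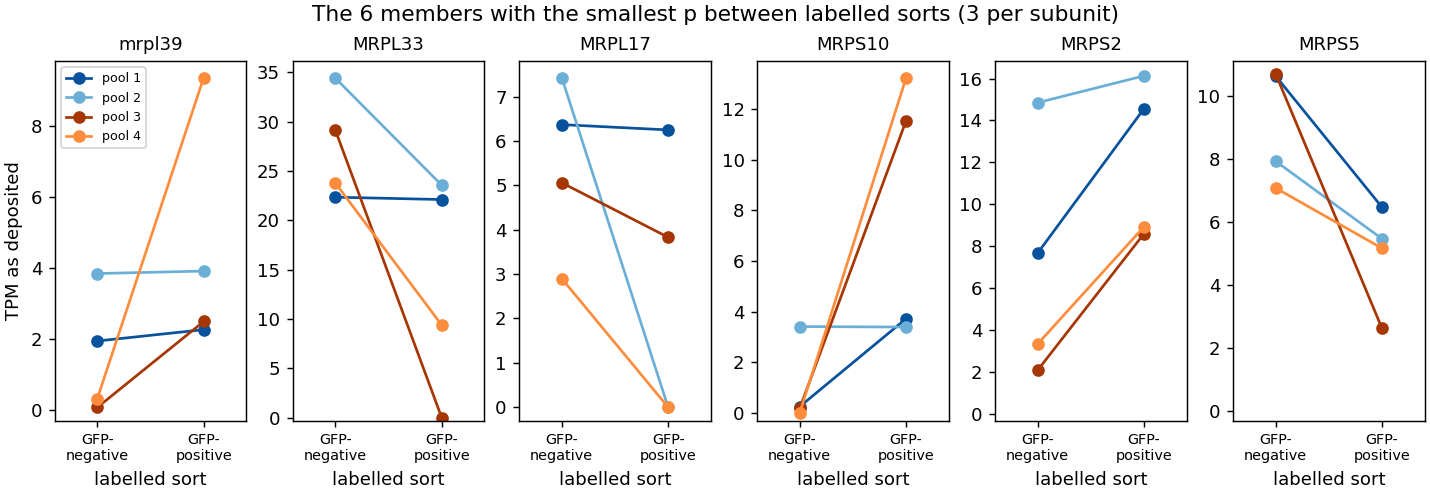
TPM as deposited in the GFP-negative and GFP-positive library of each pool, joined by a line per pool, for the 3 large-subunit (mrpl39, MRPL33, MRPL17) and 3 small-subunit members (MRPS10, MRPS2, MRPS5) with the smallest p between labelled sorts. MRPS2 and mrpl39 have the higher value in the GFP-positive library of all 4 pools, MRPS10 is level in pool 2, MRPS5 is lower in the GFP-positive library of all 4, and MRPL33 and MRPL17 reach 0 in 1 and 2 GFP-positive libraries.

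The second comparison was among the 4 pools of hearts, with the labelled sort as a term. Its p-values measure the spread between 2 libraries of the same hearts, not the spread between sets of hearts. The F test of the pool term called 13 of 67 members, 8 large and 5 small, beside 12.9% of all 13877 genes. All 13 had both of their highest pools in 1 and 2, beside 7.85% of all genes called in that arrangement, and 0 members were called with pools 3 and 4 highest, beside 4.55%. The shares of the 2 subunits were alike, 19.5% of the large and 19.2% of the small. Each of the 4 contrasts across the division called members lower in pool 3 or 4: 12 for pool 3 against 1 (7.83% of all genes), 9 for pool 4 against 1 (6.69%), 12 for pool 3 against 2 (8.55%) and 11 for pool 4 against 2 (7.63%). None was called higher in these 4 contrasts, beside 4.64%, 4.16%, 5.18% and 4.84% of all genes. Between pools 1 and 2 and between pools 3 and 4 no member and no gene was called by limma (0%). At an unadjusted p under 0.05 these last contrasts listed 1 and 8 of 67 members, beside 375 and 1186 of 13877 genes. The members' share was the smaller between pools 1 and 2 and the larger between pools 3 and 4.

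Most members that were not called leaned the same way. The mean of pools 3 and 4 minus that of pools 1 and 2, given without a test because 2 pools against 2 cannot reach an exact two-sided permutation p below 0.333, was negative for 63 of 67 members (94.0%), beside 51.3% of all genes tested. Its median was -1.33 on the log2 scale over the large subunit (quartiles -1.77 and -0.99) and -1.02 over the small subunit (quartiles -1.52 and -0.37), beside -0.03 over all genes (quartiles -0.66 and 0.54). Single members ranged from -2.94 to 0.51. With all 73 members and no filter on low values, 69 were lower in pools 3 and 4, with a median of -1.21. Without scaling, 49 of the 67 tested members were lower, and the median over all genes tested was 0.80. On scaled TPM, 23 of 67 members, 17 large and 6 small, had all 4 libraries of pools 1 and 2 above all 4 of pools 3 and 4, beside 14.5% of all genes. On TPM as deposited this held for 6 members (6.26% of all genes), and 3 had pools 3 and 4 above (33.4%). The 6 were mrpl18, mrpl34, mrpl52, MRPL40, MRPS14 and MRPS35.

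Among the called large-subunit members, mrpl34 had the smallest p. Its product is a small protein of bacterial descent. It stood at 20.7 and 16.4 TPM in the GFP-negative and GFP-positive libraries of pool 1 and at 7.03 and 9.48 TPM in pool 2, against 0.20 and 0.32 TPM in pool 3 and 4.98 and 5.52 TPM in pool 4. Pools 3 and 4 lay below pools 1 and 2 without overlap, pool 3 far below, and the log2 difference was -2.94 (SE 0.31; F test adjusted p = 0.00236, limma); without pool 3 it was -1.74. For mrpl18, a protein of the central protuberance, the values were 9.85, 9.62, 15.9 and 15.0 TPM in pools 1 and 2 and 2.26, 0.70, 8.94 and 3.43 TPM in pools 3 and 4, again without overlap (-2.57, SE 0.34; adjusted p = 0.00688, limma). The call was lost without pool 3, where the difference was -1.64.

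Proteins known only from mitochondria followed among the large-subunit calls. Values of mrpl52 were 20.3, 2.99, 10.4 and 6.37 TPM in pools 1 and 2 and 1.63, 0, 1.66 and 1.8 TPM in pools 3 and 4, so that its lowest value in pools 1 and 2 was the GFP-positive library of pool 1 (-2.81, SE 0.47; adjusted p = 0.0270, limma). MRPL43 stood at 12.4, 5.37, 7.64 and 5.13 TPM against 0.25, 1.41, 3.58 and 6.06 TPM, with an overlap as deposited that the scaled values do not have (-2.10, SE 0.40; adjusted p = 0.0272, limma). Without pool 3 it was no longer called, at -1.14. MRPL57 stood at 13.5, 19.5, 7.18 and 12.1 TPM against 11.4, 2.27, 2.87 and 1.96 TPM, where the GFP-negative library of pool 3 was as high as those of pools 1 and 2 before scaling (-2.44, SE 0.45; adjusted p = 0.0351, limma).

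The other called large-subunit members descend from bacterial proteins. MRPL12 forms the flexible stalk, and the human protein also binds mitochondrial RNA polymerase. It stood at 10.9, 6.36, 16.9 and 15.6 TPM in pools 1 and 2 and 13.96, 3.44, 5.91 and 2.71 TPM in pools 3 and 4 (-1.92, SE 0.33; adjusted p = 0.0295, limma). MRPL11, at the stalk base, stood at 22.9, 18.9, 27.4 and 23.2 TPM against 33.6, 28.5, 11.4 and 17.4 TPM. Its deposited values overlap and its lower level in pools 3 and 4 is seen on the scaled values, 31.3 to 34.8 against 9.44 to 17.8 (-1.15, SE 0.22; adjusted p = 0.0441, limma). MRPL35 stood at 2.36, 5.74, 4.12 and 11.9 TPM in pools 1 and 2, at 0 in both libraries of pool 3 and at 9.82 and 4.88 TPM in pool 4 (-1.71, SE 0.48; adjusted p = 0.0427, limma). Pool 4 lay within the range of pools 1 and 2, and without pool 3 the difference was -0.27 and not called.

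The small-subunit call with the smallest p was MRPS35, a protein particular to mitochondria. It stood at 18.1, 11.4, 22.3 and 19.7 TPM in the GFP-negative and GFP-positive libraries of pools 1 and 2, against 10.9, 3.72, 5.65 and 2.93 TPM for pools 3 and 4. The groups do not overlap on either scale, and the log2 difference was -2.52 (SE 0.29; adjusted p = 0.00553, limma). MRPS14, of bacterial descent, stood at 23.0, 9.34, 16.3 and 19.96 TPM against 8.03, 6.14, 1.37 and 3.09 TPM, also without overlap (-2.73, SE 0.37; adjusted p = 0.0109, limma). MRPS34, needed in mammals for a stable small subunit, stood at 6.78, 13.95, 23.8 and 22.0 TPM against 6.67, 3.53, 5.03 and 7.22 TPM. Its deposited values meet at the GFP-negative library of pool 1, and the scaled ones do not (-2.25, SE 0.33; adjusted p = 0.0127, limma).

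MRPS2, whose values by sort are given above, was 7.68 to 16.1 TPM in pools 1 and 2 against 2.10 to 8.94 TPM in pools 3 and 4 (-2.12, SE 0.31; adjusted p = 0.0145, limma). MRPS12, a protein of the decoding centre, stood at 11.9, 5.15, 6.56 and 13.6 TPM in pools 1 and 2, at 17.6 and 15.8 TPM in pool 3 and at 1.75 and 1.52 TPM in pool 4. Only pool 4 stood apart, on the low side (-1.45, SE 0.39; adjusted p = 0.0468, limma), and without it the difference was -0.31 and not called. MRPS35 and mrpl34 were called under all 22 alternative settings or omissions tried, mrpl18 and MRPS14 under 21, MRPS34 under 17 and MRPS2 under 15. The other 7 calls held in 7 (MRPL11) to 11 of them. Of these, MRPL35 and mrpl52 were tested under only 21. Every one of the 13 stayed lower in pools 3 and 4 in each alternative that tested it.

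**Figure D3:**
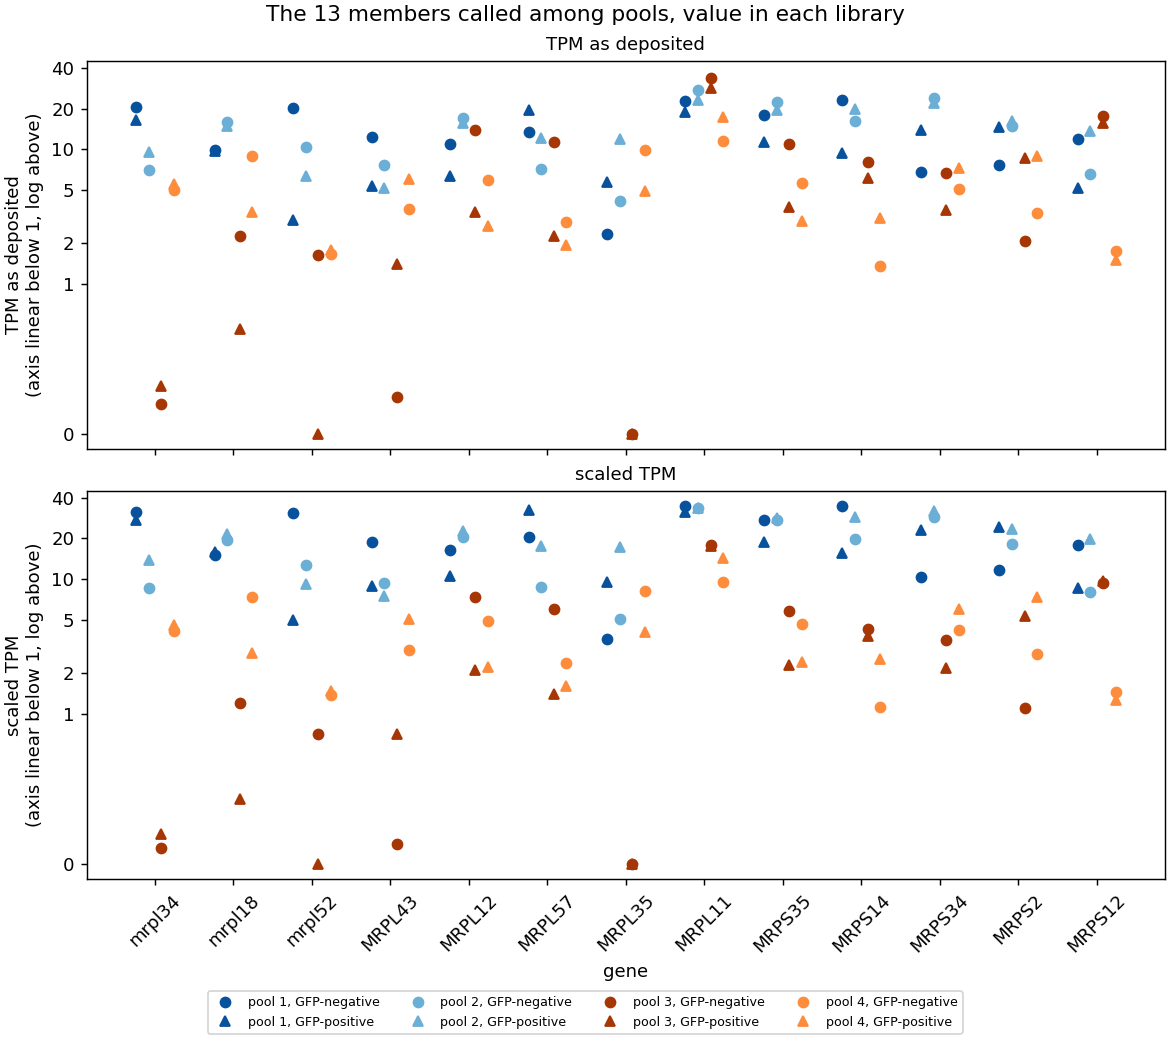
TPM as deposited (top) and scaled TPM (bottom) of the 13 members called among pools, on an axis that is linear below 1 and logarithmic above. Blue marks pools 1 and 2, orange and brown pools 3 and 4, circles GFP-negative and triangles GFP-positive libraries. On the scaled values 11 of the 13 separate the pool pairs fully, and MRPL35 and MRPS12 overlap. The 13 were picked by the F test on these same values, so their separation is a description and no support. Of all genes tested 14.5% had pools 1 and 2 fully above.

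Members with the opposite sign were few, and none of them was called. Higher means in pools 3 and 4 were found for mrpl20 (0.51), MRPL51 (0.28), MRPS23 (0.38) and MRPS25 (0.30). For mrpl20, which in bacteria acts early in assembly of the large subunit, the GFP-negative libraries stood at 7.71, 5.35, 30.8 and 41.1 TPM and the GFP-positive ones at 6.89, 8.35, 13.5 and 12.3 TPM. Deposited TPM was thus higher in all 4 libraries of pools 3 and 4, but after scaling the F test gave an adjusted p of 0.628 (SE 0.41, limma). MRPL51 stood at 12.4, 8.97, 18.5 and 11.6 TPM in pools 1 and 2 and 38.1, 47.9, 15.8 and 36.6 TPM in pools 3 and 4 (adjusted p = 0.832, limma). Of the other abundant members, MRPL32 differed by -0.17 (SE 0.40; adjusted p = 0.791), MRPS33 by -0.85 (SE 0.48; adjusted p = 0.624) and MRPS7 by -1.61 (SE 0.60; adjusted p = 0.342, all limma). MRPS7 showed how unlike the libraries of a pool could be, with 31.3 and 1.69 TPM in the GFP-negative and GFP-positive libraries of pool 3 beside 9.55 to 18.1 TPM in pools 1 and 2. MRPS33, at 6.40 to 14.9 TPM in pools 1 and 2 against 4.45 to 21.2 TPM in pools 3 and 4, overlapped fully.

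The counts were alike for both lines of descent. Of the tested members with a bacterial counterpart, 8 of 40 were called, and of those particular to mitochondria 5 of 25, 20% of each. Their median log2 differences were -1.21 and -1.39. The remaining 2 of the 67, MRPS18A and MRPS30, carry small-subunit names although in mammals their proteins lie in the large subunit. They differed by -1.37 and -0.89 and were not called.

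Summed over the 73 members, the deposited TPM did not separate the pools. The GFP-negative libraries of pools 1 to 4 summed to 571, 599, 770 and 527 TPM and the GFP-positive libraries to 514, 674, 549 and 394 TPM. After scaling the same sums were 868, 733, 408 and 436 in the GFP-negative and 852, 978, 338 and 326 in the GFP-positive libraries, without overlap between pools 1 and 2 and pools 3 and 4. The direction of the summed level therefore rests on the scaling; without it, the median of all genes tested was higher by 0.80 on the log2 scale in pools 3 and 4. Relative to that median the members differed by -1.29 as deposited and by -1.21 after scaling.

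Ratios within a library do not depend on the scaling. The small-subunit sum was 0.501 to 0.637 of the large-subunit sum in every library, with 0.618, 0.501, 0.530 and 0.536 in pools 1 and 2 and 0.637, 0.606, 0.507 and 0.630 in pools 3 and 4, which overlap. Nuclear-encoded respiratory chain genes summed to 16.8 to 17.7 times the members in pools 1 and 2 against 7.11 to 9.75 times in pools 3 and 4. Messenger RNAs of the mitochondrial genome, the templates of these ribosomes, summed to 175 to 276 times the members in pools 1 and 2 against 40.5 to 65.6 times in pools 3 and 4. Cytosolic ribosomal protein genes showed the reverse relative to the members, from 49.97 to 62.6 times in pools 1 and 2 to 150 to 174 times in pools 3 and 4. The balance of the subunits was thus similar throughout, while the members lay closer to the respiratory chain, and farther from the cytosolic ribosome, in pools 3 and 4.

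**Figure D4:**
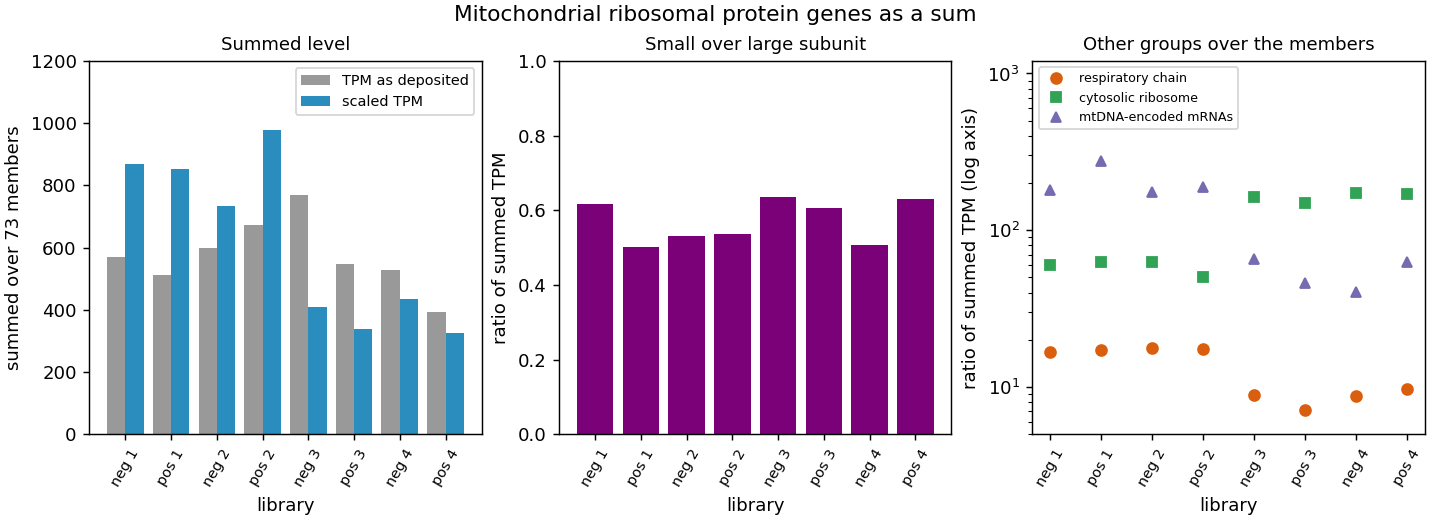
Summed TPM of the 73 members as deposited and scaled (left), ratio of the small-subunit to the large-subunit sum (middle), and sums of 3 other gene groups divided by the members' sum on a logarithmic axis (right), for each of the 8 libraries. The subunit ratio stays between 0.501 and 0.637, and each of the 3 ratios on the right separates pools 1 and 2 from pools 3 and 4.

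The 2 libraries of a pool differed more in their members in pools 3 and 4 than in pools 1 and 2. The median absolute log2 difference between the sorts was 0.64, 0.46, 0.94 and 1.04 over the 67 members in pools 1 to 4, beside 0.45, 0.45, 0.61 and 0.58 over all genes tested, nearly equal in pool 2; these medians were not tested against each other. No member was under 1 TPM in 1 library and at 10 TPM or more in the other in pools 1 and 2. In pool 3 there were 6 (mrps28, MRPS10, mrps18c, MRPL44, MRPS24 and MRPL33) and in pool 4 there were 3 (MRPL48, MRPS10 and MRPS16), beside 2.82% and 1.44% of all genes tested. They were low in the GFP-positive library in 4 and 2 cases and in the GFP-negative library in 2 and 1. One of 3 zebrafish genes named for the bacterial S18 protein, mrps18c, stood at 33.9 TPM in the GFP-negative and 0.31 TPM in the GFP-positive library of pool 3, and at 4.29 to 11.02 TPM in the other 6 libraries. The share of tested members under 1 TPM was 7.46%, 1.49%, 23.9% and 8.96% in the GFP-negative libraries of pools 1 to 4 and 1.49%, 7.46%, 16.4% and 23.9% in the GFP-positive ones. Over all genes tested it was 18.1%, 11.7%, 12.5% and 11%, and 14.7%, 17.3%, 10.4% and 13.3%.

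Other proteins of the mitochondrial ribosome, or acting on it as malsu1 does, whose symbols the rule does not match, leaned the same way. All 6 rows of this list (DAP3, ptcd3, chchd1, AURKAIP1, GADD45GIP1 and malsu1) were tested and none was called, and 6 of 6 were lower in pools 3 and 4, with a median of -1.46. DAP3, a GTP-binding protein of the small subunit, stood at 3.79 to 6.89 TPM in pools 1 and 2 against 0.34 to 2.65 TPM in pools 3 and 4. The most abundant, malsu1, which keeps the large subunit from joining too early, stood at 17.6 to 21.6 TPM against 13.8 to 51.2 TPM (-0.81, SE 0.34; adjusted p = 0.419, limma).

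Genes that build or serve the ribosome had median differences nearer 0, although most assembly and translation factors had the same sign as the members. For translation factors the median, -0.90, was close to that of the small subunit, -1.02 (quartiles -1.52 and -0.37). The genes of these lists were also less abundant. The median of their mean scaled TPM was 2.99 for assembly factors, 2.80 for translation factors and 3.84 for synthetases, beside 8.63 for the members. The pseudocount shrinks differences of low genes more, so these medians cannot be ranked apart from abundance. Of 23 assembly factors 15 were tested and none was called, with 14 lower in pools 3 and 4 (93.3%, median -0.41), among them OXA1L, the insertase that receives newly made proteins at the inner membrane, at 3.78 to 12.9 TPM against 5.90 to 13.02 TPM (-0.93, SE 0.35; adjusted p = 0.272, limma). As deposited, the 23 assembly rows summed to 43.3 to 49.8 TPM in pools 1 and 2 against 61.7 to 122 TPM in pools 3 and 4, the opposite direction. The scaled sums overlapped, at 60.9 to 82.6 against 46.3 to 64.4. The direction for this list therefore rests on the scaling. Of 13 translation factors 10 were tested and none was called, with 9 lower in pools 3 and 4 (90%, median -0.90). The elongation factor TUFM stood at 12.45 to 19.7 TPM in pools 1 and 2 against 9.48 to 30.01 TPM in pools 3 and 4 (-0.98, SE 0.25; adjusted p = 0.115, limma). Of 15 mitochondrial aminoacyl-tRNA synthetases 7 were tested and none was called (median 0.11), with HARS2, which charges histidine tRNA, at 5.74 to 11.2 TPM against 11.1 to 31.6 TPM (0.11, SE 0.27; adjusted p = 0.813, limma). Of the synthetases, 3 were lower and 4 higher in pools 3 and 4.

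Among 16 genes of mitochondrial transcription and genome upkeep 11 were tested and 2 were called (18.2%, beside 12.9% of all genes). Both were lower in pools 3 and 4 (median of the list 0.30). SLIRP, which protects mitochondrial messenger RNAs, stood at 17.2 to 45.01 TPM against 7.59 to 50.8 TPM (-1.34, SE 0.31; adjusted p = 0.0251, limma), and the transcription factor tfb2m at 5.05 to 11.8 TPM against 1.74 to 10.7 TPM (-1.57, SE 0.36; adjusted p = 0.0486, limma). Both overlap as deposited, and both calls were lost without pool 3, where the differences were -0.32 for SLIRP and -0.73 for tfb2m. The SLIRP call was also lost without pool 2 or any single library of pools 2 to 4, and the tfb2m call held under no omission other than pool 4 or the GFP-positive library of pool 3. Of 12 rows for nuclear regulators of mitochondrial genes, all tested, 3 were called with pools 1 and 2 highest (25%, beside 7.85% of all genes). PPARGC1A, the coactivator best known for raising mitochondrial content in muscle, stood at 4.69, 6.91, 12.45 and 10.98 TPM in pools 1 and 2 and 1.96, 0.43, 0.12 and 3.17 TPM in pools 3 and 4 (-2.85, SE 0.46; adjusted p = 0.0229, limma). Its call was lost without pool 1, pool 2 or any single library of these pools, with differences of -3.35 to -2.38 over all omissions. GABPB1, the partner of the DNA-binding factor GABPA, stood at 1.74, 1.87, 4.70 and 3.53 TPM against 0.12, 0, 0 and 0 TPM (-2.29, SE 0.35; adjusted p = 0.0177, limma), a size that depends on the pseudocount. It reached 1 TPM in the 4 libraries of pools 1 and 2 alone and so passed the filter only through the pools where it is high, and its call supports nothing about the list. GABPA itself differed by -0.82 (adjusted p = 0.571) and NRF1, another activator of such genes, by 0.32 (adjusted p = 0.343, both limma). The third call was 1 of 2 rows listed as MYC.

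The templates and partners of mitochondrial translation had larger median differences than the members. They were also more abundant, with a median of the mean scaled TPM of 6709 for the templates and 58.7 for the respiratory chain. The members stood at 8.63, where the pseudocount shrinks differences more. The cytosolic ribosome, at 630, was abundant too but had a median difference of 0.29. The part of abundance in these medians was not tested. All 13 messenger RNAs of the mitochondrial genome were called with pools 1 and 2 highest, beside 7.85% of all genes, with a median of -3.18. MT-ND4, a complex I subunit, stood at 4825 to 6468 TPM in pools 1 and 2 against 868 to 1973 TPM in pools 3 and 4. Of 94 nuclear respiratory chain rows 92 were tested and 75 called (81.5%, beside 12.9% of all genes). Of the 75, 74 had pools 1 and 2 highest and 1, COX4I2, had pools 3 and 4 highest (list median -2.36). NDUFS3, another complex I subunit, stood at 67.3 to 98.2 TPM against 9.93 to 29.6 TPM, without overlap. Of 81 cytosolic ribosomal protein rows, all tested, none was called by limma and 0 had an unadjusted F test p under 0.05 (median 0.29). After scaling, 76 of these rows were higher and 5 lower in pools 3 and 4, beside 6762 higher of all 13877 genes. As deposited, 75 had pools 3 and 4 fully above, beside 33.4% of all genes. RPS2 stood at 1528 to 1958 TPM against 3404 to 5644 TPM as deposited and differed by 0.22 after scaling (SE 0.19; adjusted p = 0.835, limma). The medians of the members, -1.33 and -1.02, lay between those of the cytosolic ribosome and of the respiratory chain. Between labelled sorts no gene of any of these lists was called.

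**Figure D5:**
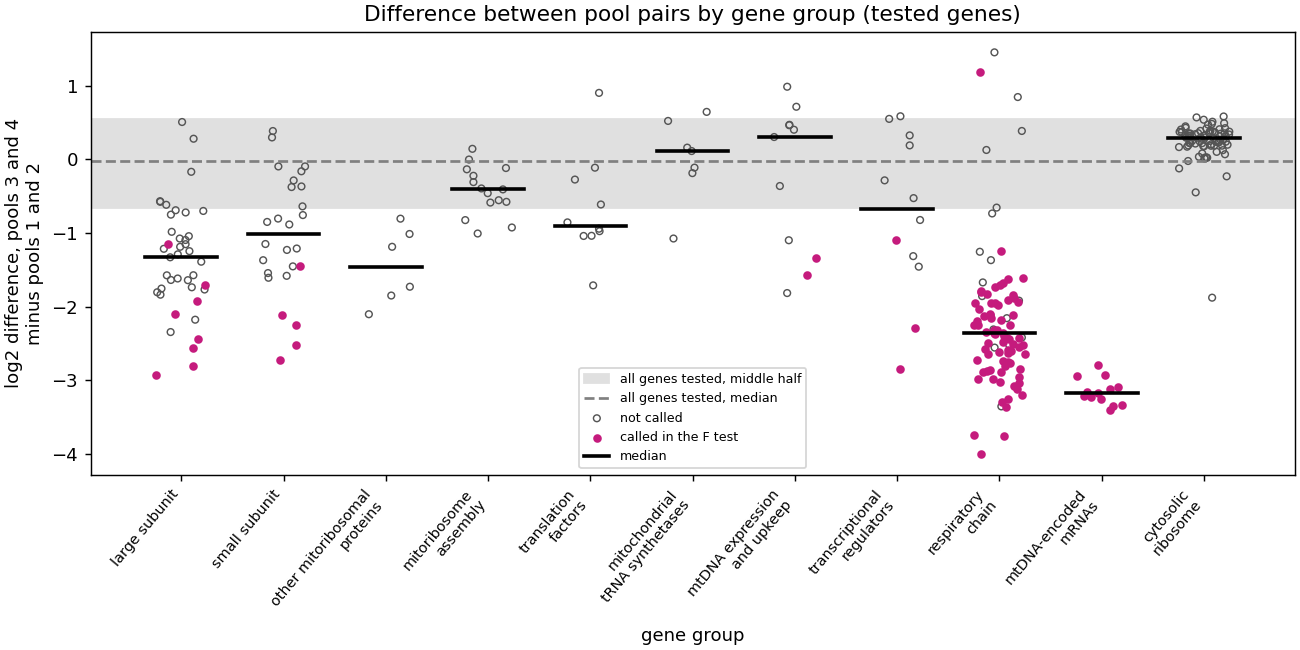
Log2 difference of pools 3 and 4 minus pools 1 and 2 for each tested gene of each group, with the group median as a bar and filled points for genes called by the F test; the grey band spans the quartiles of all 13877 genes tested, -0.66 to 0.54, and the dashed line their median, -0.03. The medians run from 0.30 for transcription and genome upkeep to -3.18 for messenger RNAs of the mitochondrial genome, with the large subunit at -1.33 and the small subunit at -1.02.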

How the data were processed

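RNA from 8 libraries was read as 60-base single reads. Per the submitters' processing notes, CASAVA 1.8.2, cutadapt and RSEM 1.2.25 were used with the zebrafish build Zv9; the aligner and the annotation are not given in the sources used here. As the authors deposited it, the table is named for counts, but each column sums to between 999999 and 1000000, so its values were taken as TPM made by the authors, and a model for TPM was used in place of a count test. Depth per library is therefore unknown, and no counting interval could be given. The table lists 31388 rows, 25925 with a symbol.

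TPM values were divided by factors from an unweighted trimmed mean of log ratios (30% and 5% trimmed) written for this work. A gene was tested where 4 or more libraries reached 1 TPM (13877 genes). limma 3.58.1 in R 4.3.3 fitted log2(scaled TPM + 1) with a variance trend, on pool and labelled sort, and p-values were adjusted by Benjamini-Hochberg over all genes tested, with a threshold of 0.05. Same-numbered libraries come from the same hearts, per the series' design and the pool label. Their deviations correlated at 0.403 to 0.537 in the 4 pools. Libraries of different pool numbers were not compared in this way, so these values cannot test the pairing, which rests on the labels. The script was tested on simulated data. The members and gene lists were chosen with earlier results of these data known.

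Named with values were, per subunit, the 3 members with the smallest p between sorts, up to 8 called among pools, the 3 highest means, those that failed the filter, and 1 or 2 genes per list. Members named for a pool direction opposite to most, for non-overlap or for scatter within a pool were singled out after their values were seen. List genes named beyond this rule, such as DAP3, GABPA and NRF1, were also chosen with their values known. The markers and lists cover genes found by symbol in the table. Figures were drawn with matplotlib 3.10.9. Promoters and protein sequences are not used here.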

Additional observations from a re-analysis of the deposited data

Results flagged for a closer look

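Among the groups of 4 libraries of 1 sort examined for the named members (50 groups, of which chance would single out about 1 in 20), 2 held a library far from the other 3. In MRPS10, the GFP-negative library of pool 2 stood at 3.41 TPM while the next was at 0.25 TPM and the lowest at 0, a gap of 0.927 of the range. In MRPS34, the GFP-negative library of pool 2 stood at 23.78 TPM while the next was at 6.78 TPM and the lowest at 5.03 TPM, a gap of 0.907 of the range.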

How the results depend on the processing

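Among pools, 13 of 67 members were called (19.4%, beside 12.9% of all genes). On TPM as deposited 7 of 67 were called, a smaller share than the 28.9% of all genes. With no filter 4 of 73 were called, beside 3.60% of 24556 genes. When a pool or a library was left out, 5 to 12 of 67 were called, beside 6.72% to 10.3% of all genes. The 1787 calls over all genes became 4007, 884 and 932 to 1426. The lowest count, 5, came without either the GFP-negative library of pool 1 (6.72% of all genes) or the GFP-positive library of pool 2 (7.08%). The median over the large subunit, -1.33, was -0.54 on TPM as deposited, -1.94 with a pseudocount of 0.1, -0.75 with a pseudocount of 5 and -1.62 to -1.08 with omissions. Over the small subunit, -1.02 became -0.24 as deposited, -1.41 with a filter of 5 TPM, -1.51 and -0.57 with the pseudocounts of 0.1 and 5, and -1.39 to -0.73 with omissions. Between sorts, 0 members were called under every alternative, and 0 to 3 of all genes with omissions; the medians ran from -0.27 to 0.03 (large) and -0.24 to 0.06 (small). With no replicate block the sort called 0 members with medians of -0.05 and 0.02, and pool alone, without the sort term, called 16 members and 1913 genes, so the pairing changed no call between sorts. For the difference between pools, 49 of 67 members were lower in pools 3 and 4 on TPM as deposited, beside 63 on scaled TPM. Among the genes named by rule, the sign turned as deposited for MRPL32 (0.87), MRPS10 (0.22), MRPS33 (0.14), malsu1 (0.22), OXA1L (0.02) and TUFM (0.04). With omissions it turned for HARS2 (-0.09 to 0.30), MRPL32 (-0.70 to 0.34) and MRPS10 (-1.10 to 0.30). The cause of these changes was not tested beyond the construction of each alternative. The other scalings and robust variance each called the same 13 members. The filter of 5 TPM tested 45 members and also called 13, of which 11 were among the 13 calls. Depth is unknown, so the precision of values near 0 could not be given.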
